A study of Homo sapiens with 191 samples.

Results

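The nuclear genes of oxidative phosphorylation (OXPHOS) were examined for open chromatin at their promoters in GM12878, an Epstein-Barr virus-transformed human B-lymphoblastoid line. Members were the protein-coding genes on chromosomes 1 to 22 and X whose symbols begin with NDUFA, NDUFB, NDUFC, NDUFS or NDUFV and a digit, with COX and a digit, with UQCR or with ATP5, together with SDHA, SDHB, SDHC and SDHD. The rule took 98 of 20090 genes, 37 of complex I, 4 of complex II, 9 of complex III, 28 of complex IV and 20 of complex V. The cells were unstained, and they were fixed and permeabilised before Tn5 transposase, which inserts sequencing adapters where DNA is accessible, was applied to the whole suspension. Single cells were then sorted into 2 plates, and 96 libraries carry the label of one plate and 95 that of the other. All libraries are of 1 line and 1 group, so there was no treatment, no second group and no replicate of the measurement. The values came from 1 list of 50000 accessible regions called on pooled cells, each 501 bp wide as written, and the depth behind a region and its value in single cells are unknown.

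The respiratory chain of the mitochondrial inner membrane passes electrons from NADH (complex I) and succinate (complex II) through coenzyme Q, complex III and cytochrome c to oxygen at complex IV, and the proton gradient that this builds drives ATP synthase (complex V). Most subunits are encoded in the nucleus and imported, while a small core of hydrophobic subunits is encoded by mitochondrial DNA. Reads from mitochondrial DNA had been removed before regions were called, so only the nuclear share of each complex was measured. Nuclear respiratory factor 1 (NRF1), the ETS-family factor GABPA (also called NRF2), YY1 and the estrogen-related receptor alpha (ERR alpha) are the factors classically associated with promoters of these genes.

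Members that hold the letters bound by these factors close to a transcription start site (TSS) are shown first, since the motif comparison turns on them. In every sequence below, capitals mark matches on either strand to GCGCANGCG (NRF1), CCGGAAG (ETS), AAGATGGCG (YY1) or AAGGTCA (ERR alpha), and lower case marks all other bases. The sequences are of build hg19, written 5′ to 3′ on the strand of the gene. ATP5F1C encodes the gamma subunit, the rotating shaft of ATP synthase, and it has the highest score of the members whose NRF1 letters are centred on a TSS (chr10:7830047-7830197, plus strand). ATP5MK encodes a small membrane subunit of the same enzyme and has the highest score of those with ETS letters centred on a TSS, which read on the opposite strand (chr10:105156157-105156307, minus strand). UQCRC1 encodes a core protein of complex III, and its YY1 letters lay 7 bp downstream of a TSS with NRF1 letters on their 5′ side (chr3:48646977-48647127, minus strand).
ATP5F1C: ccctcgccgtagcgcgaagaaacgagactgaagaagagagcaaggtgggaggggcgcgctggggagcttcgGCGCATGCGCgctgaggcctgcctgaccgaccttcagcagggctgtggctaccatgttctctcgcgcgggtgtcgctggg
ATP5MK: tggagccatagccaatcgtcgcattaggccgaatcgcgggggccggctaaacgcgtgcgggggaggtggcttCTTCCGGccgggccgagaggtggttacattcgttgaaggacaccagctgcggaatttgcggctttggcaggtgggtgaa
UQCRC1: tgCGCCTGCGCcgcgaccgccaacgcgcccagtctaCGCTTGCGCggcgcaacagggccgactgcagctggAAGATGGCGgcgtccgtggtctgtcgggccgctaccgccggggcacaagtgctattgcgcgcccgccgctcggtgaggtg

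The centres of the region with the highest member score and of a region shared by a subunit gene and a regulator gene are printed next. COX18 encodes an assembly factor that moves part of a mitochondrially encoded subunit across the inner membrane (chr4:73935430-73935630, minus strand). ATP5PF encodes coupling factor 6 of ATP synthase, and its region also covers a TSS of GABPA, the gene of the ETS factor itself (chr21:27107219-27107419, minus strand).
COX18: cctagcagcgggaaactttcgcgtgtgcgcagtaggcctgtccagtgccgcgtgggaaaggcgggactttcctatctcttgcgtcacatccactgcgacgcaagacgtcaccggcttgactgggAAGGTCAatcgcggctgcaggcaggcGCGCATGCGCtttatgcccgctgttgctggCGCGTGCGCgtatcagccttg
ATP5PF: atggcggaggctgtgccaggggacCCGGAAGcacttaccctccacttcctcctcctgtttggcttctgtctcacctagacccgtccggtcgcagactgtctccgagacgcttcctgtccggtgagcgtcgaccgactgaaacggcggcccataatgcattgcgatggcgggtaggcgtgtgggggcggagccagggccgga

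For the comparison of broadly expressed subunits with tissue-restricted counterparts, 300 bases around the canonical TSS (250 before it and 50 from it on) are given for 2 pairs in which only the broad gene had a region. COX7A2 (chr6:75953468-75953767, minus strand) and COX7A1 (chr19:36643300-36643599, minus strand) encode the liver-type and muscle-type forms of one complex IV subunit. COX6A1 (chr12:120875666-120875965, plus strand) and COX6A2 (chr16:31439632-31439931, minus strand) encode the corresponding forms of another. For NDUFA4 (chr7:10979889-10980089, minus strand) and NDUFA4L2 (chr12:57630097-57630297, minus strand), the pair in which both genes had a region, the central bases of that region are given.
COX7A2: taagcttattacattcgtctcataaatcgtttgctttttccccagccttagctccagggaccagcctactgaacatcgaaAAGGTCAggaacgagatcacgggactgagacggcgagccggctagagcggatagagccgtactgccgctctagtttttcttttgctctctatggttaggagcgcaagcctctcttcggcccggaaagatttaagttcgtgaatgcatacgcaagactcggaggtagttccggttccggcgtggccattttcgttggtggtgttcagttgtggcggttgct
COX7A1: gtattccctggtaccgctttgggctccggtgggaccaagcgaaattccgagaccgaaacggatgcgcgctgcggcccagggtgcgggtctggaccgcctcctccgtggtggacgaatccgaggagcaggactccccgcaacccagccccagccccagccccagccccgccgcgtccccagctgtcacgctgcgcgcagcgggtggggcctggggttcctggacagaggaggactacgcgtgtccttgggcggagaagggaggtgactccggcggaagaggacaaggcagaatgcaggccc
COX6A1: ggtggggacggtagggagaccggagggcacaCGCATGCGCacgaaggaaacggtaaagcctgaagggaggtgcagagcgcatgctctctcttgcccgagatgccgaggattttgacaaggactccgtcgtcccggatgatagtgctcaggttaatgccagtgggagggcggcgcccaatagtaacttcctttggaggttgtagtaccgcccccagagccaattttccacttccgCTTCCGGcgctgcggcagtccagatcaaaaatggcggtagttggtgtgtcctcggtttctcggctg
COX6A2: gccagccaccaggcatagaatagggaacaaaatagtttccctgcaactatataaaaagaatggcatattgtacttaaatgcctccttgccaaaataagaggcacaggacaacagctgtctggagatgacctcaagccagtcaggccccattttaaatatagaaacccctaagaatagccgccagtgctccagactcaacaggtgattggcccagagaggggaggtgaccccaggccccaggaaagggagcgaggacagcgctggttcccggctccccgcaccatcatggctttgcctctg
NDUFA4: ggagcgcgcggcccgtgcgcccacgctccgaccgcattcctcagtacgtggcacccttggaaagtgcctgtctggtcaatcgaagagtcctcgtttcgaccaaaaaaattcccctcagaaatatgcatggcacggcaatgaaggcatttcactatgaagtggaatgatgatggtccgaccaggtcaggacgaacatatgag
NDUFA4L2: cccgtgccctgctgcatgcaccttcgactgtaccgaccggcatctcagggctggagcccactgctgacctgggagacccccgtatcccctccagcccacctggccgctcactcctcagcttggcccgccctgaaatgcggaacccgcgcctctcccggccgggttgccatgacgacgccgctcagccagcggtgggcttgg

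Most OXPHOS genes had an accessible promoter in the list. A gene was counted as having a promoter region when the centre of a region lay within 1 kb of any of its annotated TSSs, and 84 of 98 members had one (85.7%, exact 95% binomial interval 77.2 to 92.0, counting error only). Over all 20090 protein-coding genes the share was 57.2%. Against the canonical TSS alone the member count was again 84, beside 52.4% of all genes. Many promoters of housekeeping genes are CpG islands, and 69 members (70.4%) had a CpG-rich TSS, defined as at least 55% GC and a CpG ratio of at least 0.6 within 500 bp on each side. Of these 69, 61 had a region (88.4%), against 73.9% of all genes with a CpG-rich TSS. Among the 29 members whose TSS was not CpG-rich, 23 had one (79.3%). For all genes the counts were 11499 of 20090 in total and 8859 of the 11988 with a CpG-rich TSS. No test was made of these shares, since the list is a single measurement and genes are not its replicates.

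The label of the line was checked against marker genes. A promoter region was found at 9 B cell genes, with scores from 34.7 (CD79A, part of the B cell receptor) to 1229.6 (CD74, the invariant chain). Of 8 genes of T cells, myeloid cells, erythroid cells, liver and epithelium, 3 had one (CD14, LYZ and EPCAM), with scores of 18.7 to 33.1.

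The score of a region is the −log10 of its significance in the peak caller, which ranks regions within this list and is not a level of accessibility per cell. The strongest promoter region of each member had a median score of 182.4 (quartiles 76.3 and 327.9, range 17.3 to 1838.1), against 129.6 (quartiles 49.1 and 334.2) over the 11499 genes with one. The members were spread over the whole scale: 46 of 84 lay above the median of all genes, 20 reached its upper quartile and 12 fell below its lower quartile. The 84 members rested on 82 different regions, because 2 readthrough genes, NDUFC2-KCTD14 and ATP5MF-PTCD1, share theirs with NDUFC2 and ATP5MF. Of the members, 3 were among the strongest 500 regions and 7 among the strongest 1000, with 82 member regions in a list of 50000. Only 16365 of the 50000 are promoter regions of protein-coding genes. The share of those among the strongest 500 and 1000 is not given here, so no excess can be read from these counts.

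**Figure D1:**
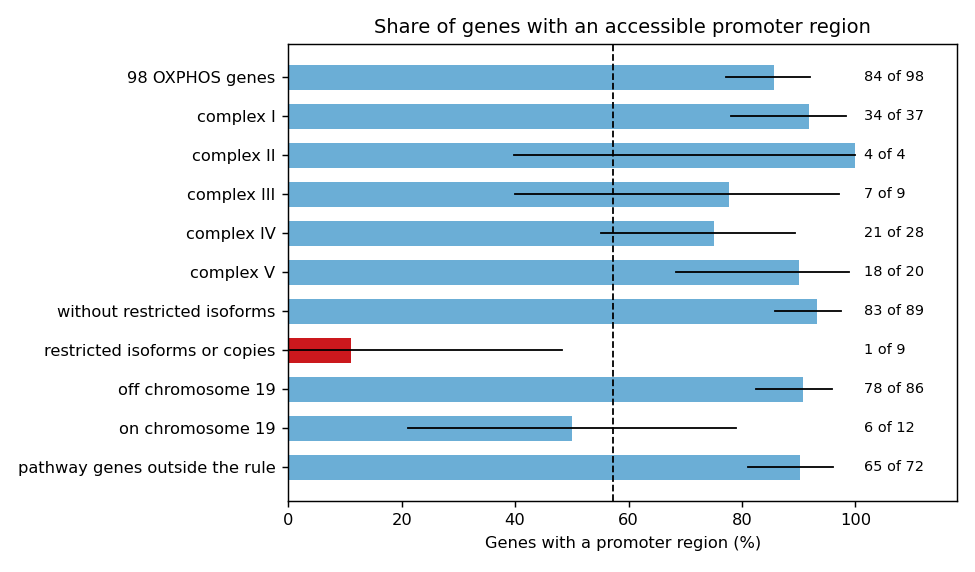
Share of genes with an accessible promoter region (x axis, percent) for all 98 OXPHOS genes, each complex, subsets of the members, and 72 pathway genes outside the symbol rule, with counts at the right. Black lines are exact 95% binomial intervals for counting error only and the dashed line is the 57.2% of all protein-coding genes. Restricted isoforms or copies (red) had a region in 1 of 9 genes and the other members in 83 of 89.

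Complex I, the NADH dehydrogenase, had a promoter region at 34 of its 37 genes, with a median score of 150.8. The highest score was that of NDUFS1, the large iron-sulfur subunit, at 1149.7 (chr2:207024033-207024533, 50 bp upstream of a TSS). That region lay 26 bp from a TSS of EEF1B2, and the strongest region nearest to NDUFS1 itself scored 20.0. NDUFB4 followed at 1003.0 (chr3:120314823-120315323) and NDUFC1 at 734.1 (chr4:140222314-140222814), both accessory subunits of the membrane arm. NDUFC1 also had the largest number of promoter regions of any member, 4, and from its canonical TSS alone it scored 227.0. Of the 7 nuclear core subunits 5 had a region, with a median of 119.8, against 28 of 29 accessory subunits with a median of 192.9. Among the core subunits after NDUFS1, NDUFV2 lay above that median, NDUFS3 just below it, and NDUFS8 scored 52.4. NDUFV1, which binds FMN and NADH, and NDUFS7, which carries the last iron-sulfur cluster before coenzyme Q, had none. Among accessory subunits the lowest scores were the 27.2 of NDUFA7 and NDUFB1 and the 33.1 of NDUFA10, and NDUFB7 had no region. The region of NDUFA11 scored 327.4 and was centred 546 bp upstream of its nearest TSS (chr19:5904313-5904813), nearer to a TSS of another gene on the opposite strand, ENSG00000267314, at 289 bp.

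Complex II, the succinate dehydrogenase that also works in the citric acid cycle, had a promoter region at each of its 4 genes. SDHB, the iron-sulfur subunit, scored 355.0 (chr1:17380410-17380910). SDHD, a membrane anchor of the enzyme, scored 284.3 (chr11:111957246-111957746), and SDHA, the flavoprotein, 207.7 (chr5:218034-218534). The second anchor, SDHC, had the lowest score of the complex at 74.9. The region of SDHA lay 16 bp from a TSS of CCDC127, and the strongest region nearest to SDHA itself scored 34.7, below SDHC. That of SDHD lay 16 bp from a TSS of TIMM8B and 52 bp from one of SDHD, and no promoter region was nearest to SDHD itself. The scores of these 4 genes, whose products are assembled in equal numbers, thus ran from below the median of all genes to above its upper quartile.

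Complex III, the cytochrome bc1 complex, had a promoter region at 7 of 9 genes, with a median of 176.2. UQCRB, a small accessory subunit, scored 459.1 (chr8:97247600-97248100), UQCRFS1, the Rieske iron-sulfur protein, 275.4 (chr19:29703882-29704382), and UQCRH, the hinge protein, 178.2 (chr1:46768777-46769277). The core proteins UQCRC1 and UQCRC2 were the weakest, at 36.2 and 34.7. UQCR11 had no region, and neither did UQCRHL, an intronless copy of UQCRH.

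Complex IV, cytochrome c oxidase, covered the widest range, partly because its gene symbols include assembly factors and isoforms. Of 28 genes 21 had a promoter region, with a median of 246.6. The 9 assembly factors named COX10 to COX20, which make the heme, deliver copper or stabilise new subunits, all had one, with a median of 413.7. COX18 scored 1838.1 (chr4:73935280-73935780), the highest score of the members. The copper chaperone COX17 scored 698.1, COX20 579.3, and COX10, which makes heme O, 413.7, while COX16 and COX19 scored 37.8 and 31.6. The region of COX20 was centred 582 bp upstream of a TSS (chr1:244998086-244998586), and the strongest region within 500 bp of one scored 110.1. COX7A2L, which joins complexes III and IV into supercomplexes, scored 1144.2 (chr2:42588293-42588793). The 11 broadly expressed subunits had a lower median, 86.7, with a region at 10 of them. Of these, NDUFA4 scored 778.1, COX7C 695.5 and COX7A2 556.9, whereas COX8A scored 47.4 and COX7B 44.2. COX5A was the broad subunit with no region.

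Complex V, the ATP synthase, had a promoter region at 18 of 20 genes, with a median of 195.0. ATP5F1C scored 867.1 (chr10:7829807-7830307) and ATP5PF 846.0 (chr21:27107069-27107569). The 3 genes that encode an identical mature c subunit of the rotor ring lay within the quartiles of all genes, with 311.4 for ATP5MC3 (chr2:176046176-176046676), 288.8 for ATP5MC1 and 237.9 for ATP5MC2. The catalytic beta and alpha subunits, ATP5F1B and ATP5F1A, scored 188.7 and 98.8. ATP5IF1, the inhibitor that stops the enzyme from running backwards, scored 125.7. ATP5MG had the lowest score of the members with a region, 17.3, and ATP5F1D, the delta subunit, had none.

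**Figure D2:**
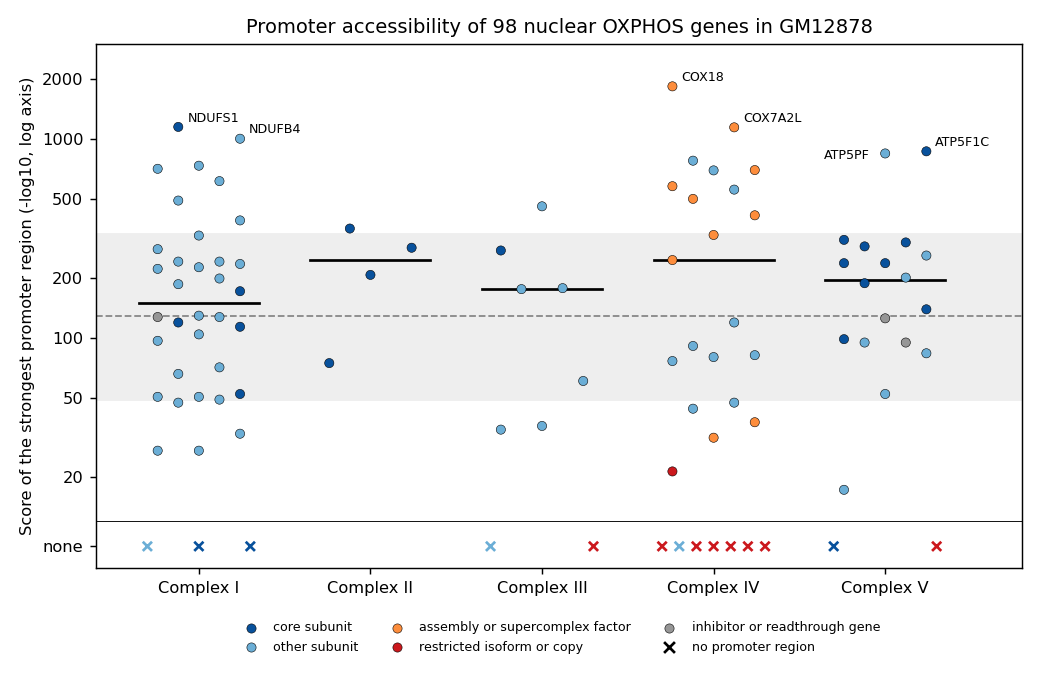
Score of the strongest promoter region of each OXPHOS gene (y axis, −log10 on a log axis) by complex (x axis), with 1 point a gene coloured by its role and crosses below the line for the 14 genes with no promoter region. Black bars are the medians of genes with a region, and the dashed line and grey band are the median (129.6) and quartiles (49.1 and 334.2) over 11499 protein-coding genes. COX18 lies highest, at 1838.1, and 7 of the 14 crosses are in complex IV.

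Scores of the classes overlapped throughout. The 22 genes classed as core, which are 7 of complex I, 4 of complex II, the Rieske protein and 10 of complex V, had a median of 237.9 over 19 with a region. The 54 classed as accessory, which include the broad complex IV subunits, UQCRC1 and UQCRC2, had 127.6 over 51. Each gene is measured once, so these medians describe the spread among genes only.

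The 14 members with no promoter region fell into tissue-restricted genes or copies (8) and broad subunits (6). The 6 broad ones were NDUFB7, NDUFS7 and NDUFV1 of complex I, UQCR11 of complex III, COX5A of complex IV and ATP5F1D of complex V. For these 6 genes the GC content around the TSS had a median of 65.8% (56.5 to 68.1), against 58.5% for members with a region. At a GC of 55 to 60% a region was found at 32 of 34 members, beside 64.4% of all genes. The values were 19 of 24 and 68.0% at 60 to 65%, and 7 of 11 and 69.8% at 65 to 70%. From 70% on they were 4 of 4 and 62.6%. The nearest region was 6005 bp from a TSS for NDUFB7, 7480 bp for ATP5F1D and 18553 bp for NDUFV1. It was 42765 bp away for UQCR11, 47785 bp for COX5A and 98916 bp for NDUFS7. NDUFB7, NDUFS7, UQCR11 and ATP5F1D lie on chromosome 19, where 6 of 12 members had a region beside 48.6% of the chromosome's protein-coding genes. Off chromosome 19 the member count was 78 of 86. Of 39 other protein-coding genes with a canonical TSS within 100 kb of the 6, 11 had a promoter region (28.2%), against 244 of 370 (65.9%) around the 84 members that had one. Neighbours were counted once for each member, so those of readthrough genes were counted again with the parent gene. Neighbours can also be divergent partners, and the strongest region of 33 of the 84 members lay within 1 kb of a partner TSS. No member without a region had such a partner, so part of this difference was fixed in advance. None of the 7 neighbours of NDUFS7 had a region, and 4 of the 7 neighbours of COX5A did. The part of GC content, chromosome and neighbourhood in these missing regions was not tested. A missing row means that no region of this list lay there, since the list ends at a fixed number of regions with a lowest score of 16.0, and it does not show that the promoter was closed.

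In pairs of broad and restricted genes for the same subunit, the broad gene carried the region. All 9 broad genes had a promoter region, with scores of 17.3 to 778.1 and a median of 91.3, and 1 of the 9 restricted genes did. In complex IV, COX4I1 scored 80.3 (chr16:85833014-85833514) while COX4I2, the lung form, had none. COX6A1 scored 119.8 (chr12:120875584-120876084) and COX7A2 556.9 (chr6:75953144-75953644), while the heart and skeletal muscle forms COX6A2 and COX7A1 had none. COX6B1 scored 91.3 (chr19:36138875-36139375), COX7B 44.2 (chrX:77154844-77155344) and COX8A 47.4 (chr11:63741717-63742217), and the testis forms COX6B2, COX7B2 and COX8C had none. UQCRH (178.2) and ATP5MG (17.3, chr11:118271908-118272408) had one, and their intronless copies UQCRHL and ATP5MGL did not. The ATP5MG score is close to the lowest of the list, 16.0, and the UQCRH region lay 11 bp from a TSS of LRRC41.

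NDUFA4 and the hypoxia-induced NDUFA4L2 were the pair in which both genes had a region. NDUFA4 scored 778.1 at 209 bp upstream of a TSS (chr7:10979739-10980239), and NDUFA4L2 scored 21.4 at 671 bp downstream (chr12:57629947-57630447), with a rank of 34222. Restricted genes without a region lay far from the list as a rule, from 1827 bp (COX8C) to 102060 bp (COX7B2). Of 45 other genes with a canonical TSS within 100 kb of these 8, 26 had a promoter region.

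**Figure D3:**
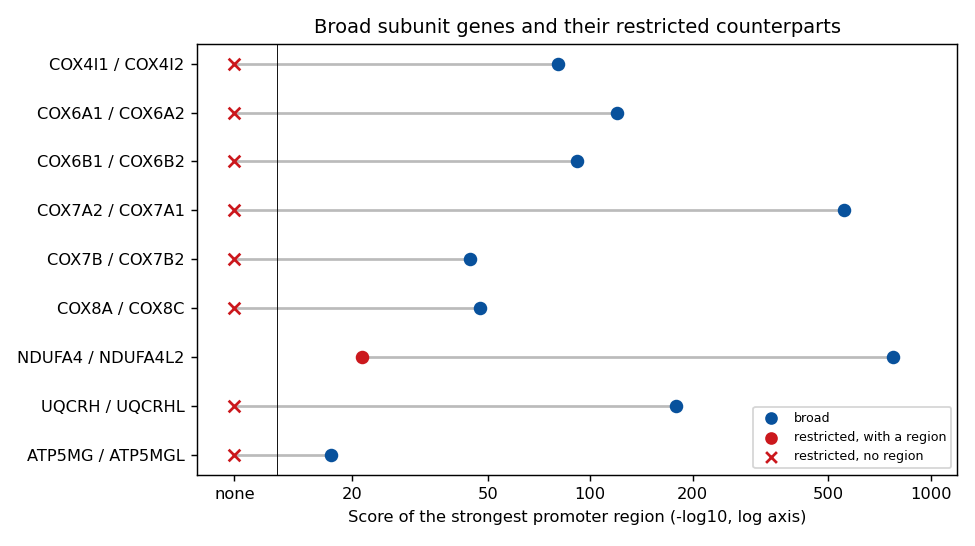
Score of the strongest promoter region (x axis, −log10 on a log axis) of 9 broad OXPHOS genes (blue) and their restricted counterparts (red), 1 pair a row, with crosses at the left for genes with no promoter region. All 9 blue points lie right of the line, and NDUFA4L2, at 21.4, is the restricted gene that does.

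Sequence around the TSS was also compared within the pairs. The CpG ratio was higher in the broad gene in 8 of 9 pairs, from 0.60 to 0.88 in the broad genes and from 0.27 to 0.69 in the restricted ones, with COX6B1 below COX6B2 as the exception (0.60 and 0.68). ETS letters stood in the 300-base TSS window of 6 of 9 broad genes (COX4I1, COX6A1, COX6B1, COX8A, UQCRH and ATP5MG) and of 0 of 9 restricted genes, with 14.0% of all genes holding them. ERR alpha letters stood in 3 of 9 and 0 of 9, with 2.95% of all genes holding them. NRF1 letters stood in 1 of 9 of each, and YY1 letters in 0 of 9 of each. GGGCGG, the box of SP and KLF factors, did not separate them, with 3 of 9 and 4 of 9. The COX7A2 and COX7A1 windows printed above show one such contrast, and the region of NDUFA4 holds none of the letters searched.

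Regions of members sat close to the start of transcription. The centre was a median of 59 bp from the nearest TSS, against 87 bp over all genes with a region, and 92.9% lay within 200 bp, against 78.3%. In 79 of 84 members the region spanned a TSS, with its centre within 250 bp. The centre was on the upstream side in 67.9% of members and 69.9% of all genes. Beside NDUFA11, COX20 and NDUFA4L2, all members were centred within 500 bp. As to extra promoter regions, 26.2% of those with a region had more than 1, against 42.2% of all genes with one. The median number of annotated TSSs was 6 over all 98 members and 5 over all 20090 genes. Counting the gene body and 10 kb on each side, the median was 2 regions both for members and for all genes.

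Head-to-head promoters were common among OXPHOS genes. A divergent partner, meaning a protein-coding gene on the opposite strand with its TSS within 1 kb and the genes pointing apart, was found for 37 of 98 members (37.8%), beside 16.1% of all genes. All 37 had a promoter region, beside 85.0% of all genes with such a partner, and of the 61 members without a partner 47 had one (77.0%), beside 51.9% of all genes without. The partners were of many kinds, and the examples here were chosen after their names were seen. NDUFB5 and NDUFS6 each start 41 bp from a mitochondrial ribosomal protein gene, MRPL47 and MRPL36, and SDHD starts 26 bp from TIMM8B, an import chaperone of the intermembrane space. NDUFS1 starts 76 bp from EEF1B2, a translation elongation factor subunit, and NDUFA7 120 bp from RPS28, a ribosomal protein. ATP5PF starts 68 bp from GABPA. The closest pair was COX4I1 and EMC8, a subunit of a membrane protein insertase, at 4 bp.

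A shared region cannot be assigned to one of its genes. The strongest region of 33 of 84 members was also within 1 kb of a TSS of the divergent partner, that of 40 members was within 1 kb of some other protein-coding TSS, and for 18 members it was nearer to the other gene. The matching shares over all genes with a region are not given here, so these counts cannot be called particular to OXPHOS genes. UQCRH is an example, with its region 343 bp from a UQCRH TSS and 11 bp from one of LRRC41. Members with a divergent partner had a median score of 178.2, and those without one 186.6.

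The share of OXPHOS regions with NRF1, YY1 and ERR alpha letters was 1.93, 3.29 and 3.45 times that of all promoter regions. The intervals below give counting error over genes only and are not a test of enrichment, and all genes include the members. The 501-bp sequences of the 82 member regions were compared with those of the strongest promoter regions of all genes (9930 regions), searching both strands. GCGCANGCG was in 27 member regions (32.9%, exact 95% interval 22.9 to 44.2), against 17.0%. AAGATGGCG was in 13 (15.9%, 8.72 to 25.6), against 4.81%, and AAGGTCA in 13 (15.9%), against 4.59%. CCGGAAG was in 27 (32.9%, 22.9 to 44.2), against 24.2%, a share inside the interval. At least 1 of the NRF1, ETS and YY1 letters was in 65.9% of member regions and 39.1% of all. Member regions had slightly less GC, with a median of 61.5% against 64.3%, and the part of base composition in these shares was not tested.

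General promoter elements were compared in the same way. GGGCGG was in 75.6% of member regions and 79.7% of all, CCAAT, the box of NFY, in 42.7% and 46.5%, and CACGTG, the E-box, in 8.54% and 14.2%. TGACGTCA, the cyclic AMP response element, was in 6.10% and 3.87%. TATAAA was in 12.2% of member regions, against 6.92%. The background share of each of these 5 lay inside the exact 95% interval of the member share. With the longer letters GGGGCGGGG it did not, as these were in 17.1% of member regions (9.66 to 27.0) and 32.0% of all. With longer letters of the other elements it did. CCAATCA was in 7.32% of member regions and 11.7% of all, and TCACGTGA in 1.22% and 2.28%. GTGACGTCA was in 3.66% and 2.81%, and TATAAAA in 2.44% and 2.45%. Overlaps between letter sets were few: 2 of 38 ETS matches overlapped GGGCGG, and 1 of 5 TGACGTCA matches overlapped CACGTG. A match shows that the letters are present and not that a factor was bound.

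**Figure D4:**
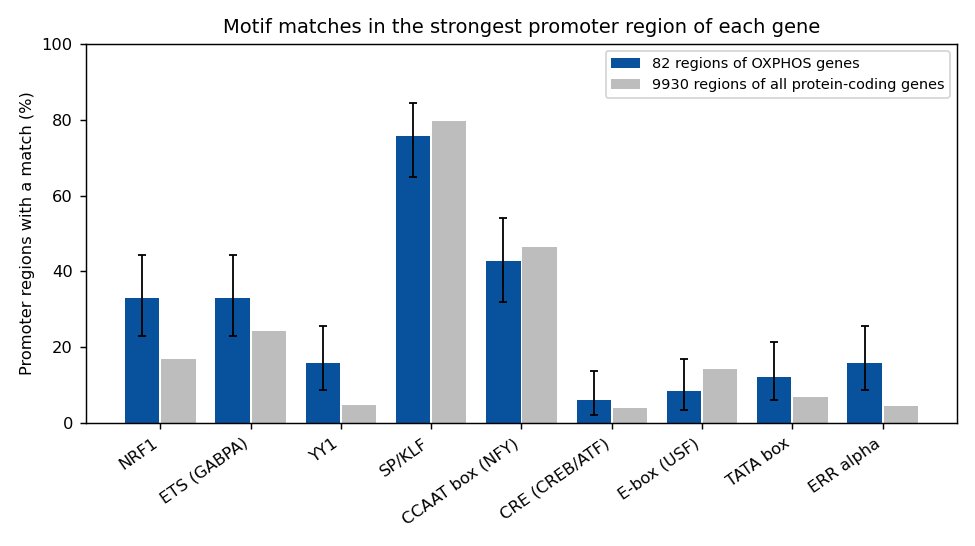
Share of promoter regions with a match to each set of letters (y axis, percent) in 82 regions of OXPHOS genes (blue, with exact 95% binomial intervals for counting error only) and in 9930 regions of all protein-coding genes (grey). The blue bars of NRF1 (32.9%), YY1 (15.9%) and ERR alpha (15.9%) have intervals that lie wholly above the grey bars.

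The letters were spread over the complexes. NRF1 letters were in 5 of 7 complex III members with a region (UQCR10, UQCRB, UQCRC1, UQCRC2 and UQCRFS1), 8 of 18 of complex V, 7 of 34 of complex I and 5 of 21 of complex IV. ETS letters were in 11 of 21 complex IV members, among them COX4I1, COX5B, COX6A1, COX6B1 and COX8A, and in 8 of 34 of complex I. In complex II, SDHB held ETS, YY1 and ERR alpha letters, SDHD held NRF1, ETS and ERR alpha letters, SDHA held NRF1 letters and SDHC none of the 4. ATP5PF was the member with NRF1, ETS and YY1 letters in a single region. The 27 regions with NRF1 letters had a median score of 235.7, above that of all member regions. For ETS letters the medians were 176.2 with and 188.7 without, and for YY1 letters 178.2 with and 199.2 without. Over all genes the order was the other way, with 153.6 and 110.1 for ETS letters and 159.7 and 119.8 for YY1 letters. These counts by complex are small and were not tested against each other.

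YY1 letters gathered just downstream of the TSS, on the strand of the gene. Of 14 matches in 13 members, 10 were on the strand of the gene, and 9 of those lay 14 to 31 bp downstream of the canonical TSS. In 8 of these 9 the ATG inside the letters was an annotated start codon of the gene, among them NDUFA6, NDUFA7, NDUFA9, NDUFB8, NDUFS4, SDHB and UQCRC1, and COX10 was the exception. Counted over genes whether or not they had a region, AAGATGGCG stood at a start codon in 10 of 98 members (10.2%), NDUFC1 and NDUFS7 being the others, against 1.87% of 19843 genes with an annotated start codon. Start codons that lie this close to the TSS and in these surrounding letters are known as a translation initiator of short leaders, with the same letters serving as a YY1 site. The same letters thus count both as a motif and as the first codons of the protein, and the 2 readings cannot be told apart here.

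NRF1 and ETS letters lay on either strand and mostly upstream. NRF1 had 49 matches at a median of 64 bp upstream of the canonical TSS, with 27 on the gene strand and 22 on the other, a palindromic site being counted on both. ETS had 38 matches at a median of 47.5 bp upstream, with 18 and 20. ERR alpha had 15 matches, 9 of them within 100 bp of the TSS.

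**Figure D5:**
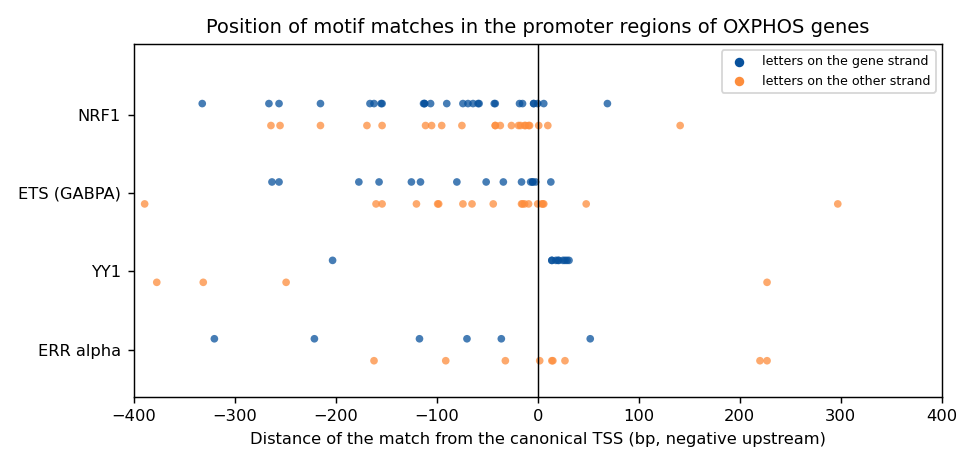
Distance of each match from the canonical TSS (x axis, bp, negative upstream) for 4 sets of letters in the promoter regions of OXPHOS genes, with blue points on the strand of the gene and orange points on the other. The blue YY1 points gather at 14 to 31 bp downstream, with 1 further point upstream, while the NRF1 and ETS points spread upstream on both strands.

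Most other genes of the pathway had a promoter region as well. Of 72 assembly factors, carriers, regulators and further subunits outside the symbol rule, 65 had one (90.3%), with a median score of 178.2. Without a region were NDUFAF1, which helps assemble complex I, the complex IV factors SURF1, COA3, COA8 and PET100, the coactivator PPARGC1A and the mitochondrial RNA polymerase POLRMT. All 12 genes of electron carriers and coenzyme Q synthesis had one, led by COQ8A (1887.7), an atypical kinase of coenzyme Q synthesis, CYCS (1797.4), which encodes cytochrome c, and PDSS2 (404.2).

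Scores of the regulators covered a wide range. TFB1M, a mitochondrial rRNA methyltransferase, scored 3677.2 and stood at rank 6 of the list, TFAM, which packages and transcribes mitochondrial DNA, scored 1122.4 and TFB2M, its partner in initiation, 938.7. The genes of the factors whose letters were searched scored 846.0 (GABPA), 350.4 (YY1), 117.9 (ESRRA, which encodes ERR alpha) and 96.9 (NRF1). GABPB1, the partner subunit of GABPA, scored 59.2. The coactivators PPRC1 and PPARGC1B scored 143.5 and 78.5, beside PPARGC1A with none.

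Assembly factors are needed to build each complex but are not part of it. For complex I, 14 of 15 had a region, led by TMEM126B (1774.2), FOXRED1 (1450.5) and NDUFAF4 (835.5). All 4 factors of complex II had one, led by SDHAF3 (759.9), SDHAF4 (432.7) and SDHAF2 (137.5), and all 6 of complex III, led by LYRM7 (1733.6), TTC19 (406.6) and BCS1L (95.0). For complex IV the count was 12 of 16, led by CMC1 (744.4), CMC2 (687.9) and HIGD2A (685.3). All 4 of complex V had one, led by TMEM70 (1811.9), FMC1 (576.8) and ATPAF2 (212.0). The 3 subunits in the list had one as well, with 331.9 for DMAC2L, 42.5 for CYC1 and 34.7 for NDUFAB1.

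Processed pseudogenes of OXPHOS genes, which are inserted copies of their messenger RNAs without the promoter, served as a contrast. Among such copies, 5 had a region within 1 kb of their start (2.69%), beside 3.10% of all 10445 processed pseudogenes. They were COX20P2 (91.3), NDUFB5P1 (37.8), ATP5MGP3 (30.1), SDHDP5 (24.3) and ATP5PBP5 (18.7), and no protein-coding TSS lay within 1 kb of those regions. COX6C had the most copies, 17, and its own promoter scored 76.7.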

How the data were processed

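Chromatin accessibility was measured by single-cell MI-ATAC in 96 and 95 libraries on 2 plates, all in 1 group. The authors aligned read pairs to hg19, filtered out mitochondrial, duplicate and low-quality reads and called summits on pooled cells with MACS2 at q 0.05, keeping the most significant as regions of fixed width, and the processing notes name Bowtie2 2.1.0 and Picard 1.79. The deposited score is the authors' −log10 of significance; the file has no header, so whether of p or q is not settled by the file, and depth is unknown. The version of MACS2, and which libraries were pooled, are not given in the sources used here. TSSs were those of GENCODE 44 lifted to hg19 (all transcripts), and the canonical TSS was that of MANE Select, else Ensembl canonical, else the outermost. Regions were assigned, motifs searched and exact binomial intervals computed with Python 3.11.15, pandas 2.3.3, scipy 1.17.1 and pysam 0.24.0, on functions tested on simulated data. Members are named by complex, and coordinates are given for the 3 strongest members of each complex, isoform pairs and members centred over 500 bp away. Members, gene lists, motifs and tests were chosen with earlier results of these data known, and the check of start codons and of neighbours within 100 kb was chosen after the values were seen. No test across samples was possible. Some genes among the members and markers are not reported here by name.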

Additional observations from a re-analysis of the deposited data

How the results depend on the processing

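The share of members with a promoter region was 85.7% and changed little at 500 bp (83.7%), at 2.5 kb (86.7%), with the canonical TSS alone (85.7%), with regions at or above the median score of the list (81.6%) and without assembly, supercomplex and readthrough genes (83.7%). With only regions whose nearest protein-coding TSS is of the gene itself, an alternative chosen after seeing the data, it fell to 70.4%, against 51.5% of all genes, and the share of pathway genes to 72.2%, since shared promoters then count for 1 gene. NDUFS1 then scored 20.0 and SDHA 34.7, and NDUFC1 scored 227.0 from its canonical TSS. Restricted isoforms had 1 region of 9, and the share was 0.00% at 500 bp and with regions at or above that median, where NDUFA4L2 drops out, and 22.2% at 2.5 kb, which adds COX8C. Of their broad partners, ATP5MG drops out with regions at or above that median. UQCRH drops out with only regions nearest to the gene itself. The share with a divergent partner was 27.6% from canonical TSSs alone, against 9.37% of all genes. NRF1 letters were in 17.1% of member regions with the stricter letters GCGCATGCG, against 4.42% of all. No paired analysis was possible because the list is 1 pooled measurement with no value per library. Depth limits what can be said of genes without a region, and shares carry counting error only.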
